A study of Danio rerio with 13 samples.

Results

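The multi-mapping crosslink sites of hnRNP A1 on the distal part of zebrafish chromosome 4 were examined, beyond 30 Mb of the assembly Zv9, on both strands. The minus-strand span from 61.29 to 61.3 Mb was left out by the same rule. The rule uses positions and no value, but it was set with earlier results of these data known, and the span left out carried a large sum that is given further on. It held 5042 of the 61753 hnRNP A1 multi-mapping sites before zygotic genome activation (preZGA, embryos of 32 cells) and 9771 of 79598 during activation (ZGA, 1000 cells). In the IgG control pull-downs it held 523 of 5211 sites at preZGA and 1634 of 9045 at ZGA. Over the 4 tables these were 13221 distinct nucleotides of 133692.

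All embryos were wild type of the AB strain and were irradiated with UV light at 254 nm, and the groups differed in stage and in the antibody, anti-hnRNP A1 or anti-IgG. The 13 libraries gave 4 groups: 3 libraries of hnRNP A1 at preZGA and 4 at ZGA, and 3 of IgG at either stage. The libraries of a group were summed by the submitters into 1 table, which leaves no spread between replicates and allows neither a test nor a p-value. In iCLIP, which is crosslinking and immunoprecipitation at single-nucleotide resolution, a cDNA ends next to the crosslinked nucleotide, and the tables list the nucleotides that passed the submitters' significance filter. A nucleotide with no entry is described as having no site listed, which does not mean that it had no cDNA.

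hnRNP A1 is an abundant RNA-binding protein that acts in splicing, in the processing of small RNAs and in RNA transport. Until the embryo's own genome is switched on, the RNA in the embryo comes from the mother. The long arm of zebrafish chromosome 4 is known as late-replicating and heterochromatic, with few single-copy protein-coding genes and many repeats, among them arrays of 5S ribosomal RNA genes and clusters of zinc-finger and NLR immune receptor genes. A cDNA from such a repeat matches several places in the genome. The deposited value divides each of these cDNAs over its places, so a copy shows only its part of the cDNAs. No site was assigned to a gene or a repeat class, because a genome and an annotation of Zv9 were not used here.

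The arm carried 7889 cDNAs of hnRNP A1 at preZGA and 14357 at ZGA, which were 19.96% (exact 95% interval 19.6 to 20.4) and 21.3% (21.0 to 21.6) of all multi-mapping cDNAs. IgG gave 219 cDNAs (12.3% of its table) at preZGA and 769.6 (21.5%) at ZGA. For hnRNP A1 the median site had 0.25 cDNAs at preZGA and 0.278 at ZGA. Its commonest values were 0.333 at preZGA, on 233 sites, and 0.5 at ZGA, on 523 sites. The sites with at least 1 cDNA, 27.2% of the sites at preZGA and 27.0% at ZGA, held 89.6% and 88.1% of the cDNAs. The highest value on a single nucleotide was 44.9 cDNAs at preZGA and 88.1 at ZGA. The minus strand held 5175 of the preZGA cDNAs and the plus strand 2714. At ZGA the strands were closer, with 8129 on minus and 6228 on plus.

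The arm's share of the hnRNP A1 multi-mapping cDNAs was 1.07 times as large at ZGA as at preZGA (1.04 to 1.10). This quantity, the share at ZGA over the share at preZGA, is called the share ratio below. Its intervals, like the others of cDNA sums here, are exact 95% intervals of sums rounded to whole cDNAs. They count only cDNAs and leave out any variation between batches of embryos. The share ratio of IgG on the arm was 1.74 (1.497 to 2.03). The share ratio of hnRNP A1 outside chromosome 4 was 0.911 (0.898 to 0.924). Share ratios depend on the scaling, because multi-mapping cDNAs were 6.34% (preZGA) and 12.3% (ZGA) of all listed cDNAs of hnRNP A1. Scaled to multi-mapping and unique cDNAs together, every hnRNP A1 share ratio given here is 1.94 times as large, and that of the arm is 2.07. The hnRNP A1 sum was 36.1 times the IgG sum at preZGA (31.5 to 41.4) and 18.7 times at ZGA (17.3 to 20.1), without correction for library depth, for which the tables hold no value.

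The value near 1 for the whole arm was the sum of components that differed. A unit present in 6 copies, described next, held 6774 hnRNP A1 cDNAs (85.9% of the arm) at preZGA and 9453 (65.8%) at ZGA. It was picked out after its values were seen. The remaining sites went from 1115 to 4903 cDNAs. Per cDNA in the unit there were 0.165 cDNAs on the rest of the arm at preZGA and 0.519 at ZGA, a change of 3.15-fold (2.95 to 3.37) that does not depend on the scaling. The share ratio was 0.817 (0.792 to 0.843) for the unit and 2.57 (2.41 to 2.75) for the rest. With the scaling to multi-mapping and unique cDNAs together, the unit's ratio turned to 1.59. IgG on the rest of the arm changed 8.88-fold (7.20 to 11.0) relative to IgG in the unit: in the unit its sum went from 113 to 82.9 cDNAs, and on the rest from 106 to 687. IgG amounted to 1.67% of the hnRNP A1 sum in the unit at preZGA and 0.877% at ZGA, and to 9.47% and 14.0% on the rest of the arm. How much of the hnRNP A1 signal on the rest of the arm is background of the pull-down was not tested.

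**Figure D1:**
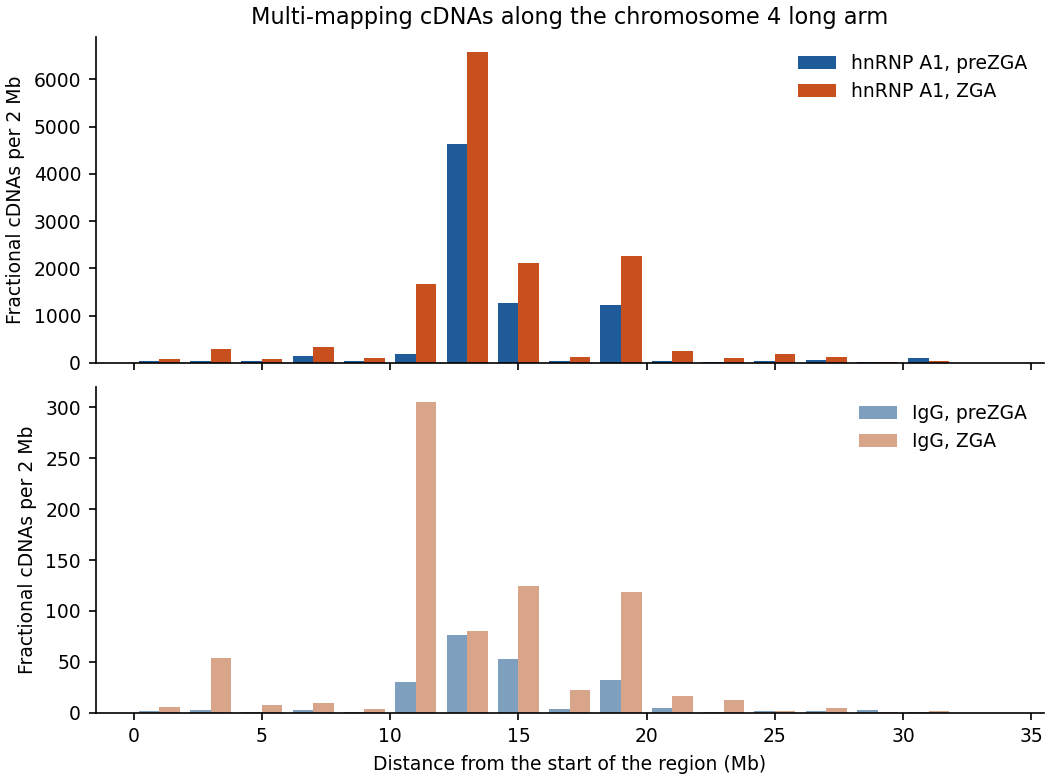
Fractional cDNAs summed over 2 Mb bins and both strands, against the distance from the start of the examined region in Mb, for hnRNP A1 (top) and IgG (bottom), each a single pooled table without error bars. The tallest hnRNP A1 bin held 4625 cDNAs at preZGA and 6571 at ZGA, and the tallest IgG bin at ZGA, with 305 cDNAs, was the neighbouring one on its left.

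The 6 copies of the unit begin at minus-strand positions 43908981, 43924541, 43940738 and 49793098 and at plus-strand positions 43985316 and 44016404, and distances below are counted from there in the direction of the strand. Within the cluster near 44 Mb, neighbouring copies on the minus strand begin 15560 and 16197 nt apart, and the plus-strand copies 31088 nt apart. The distant minus-strand copy begins 5776694 nt from the nearest of them. Sites were listed up to a distance of 5499 nt, and over that length the hnRNP A1 sum of a copy at preZGA lay between 1027 and 1170 cDNAs. At ZGA the copies held 1426, 1612, 1601, 1726, 1537 and 1551 cDNAs in the order of their positions given above. The lowest value at each stage belonged to the first minus-strand copy, which had no site from 4000 to 5499 nt. The distant copy was the only one of the 6 with unique cDNAs of hnRNP A1, 200 at preZGA and 547 at ZGA, most of them (191 and 423) beyond 4000 nt. Unique cDNAs of IgG were also listed in that copy alone, 68 at preZGA and 47 at ZGA.

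From 0 to 499 nt the copies carried the same values nucleotide by nucleotide. At preZGA 163 of the 167 listed nucleotides had equal values in all 6 copies within 0.001 cDNA, and these held 99.9% of the cDNAs there. At ZGA 198 of 210 nucleotides were equal, with 97.8% of the cDNAs. Each copy held between 771.5 and 772.4 cDNAs in this stretch at preZGA, and between 1058 and 1096 at ZGA. The values also show over how many places the cDNAs were divided. The nucleotide at 87 nt was the highest of the unit at both stages, with 44.9 cDNAs in each copy at preZGA and 65.0 at ZGA. The value at preZGA is 314 whole cDNAs divided by 7. The value at ZGA is itself whole, so it cannot show a divisor. Up to 99 nt, 75.8% of the nucleotides listed in a copy at preZGA had a value that is whole after multiplication by 7, within 0.01, against 12.9% after multiplication by 6. From 100 to 199 nt the best multiplier of those tried, 6 to 9, was 9, which made 65.8% of the values whole, and the nucleotide at 160 nt had 299 cDNAs divided by 9. Runs of the same values also lay at other places in the genome. One on the minus strand of chromosome 5, positions 4382471 to 4382958, matched 167 sites and 772.4 cDNAs at preZGA. Shorter matches lay on chromosome 5 minus, positions 1192151 to 1192508, with 62 sites, and on chromosome 20 plus, positions 55786866 to 55787226, with 51 sites. A match of 9 sites with 5 cDNAs was found at preZGA alone on chromosome 2 minus, positions 44445978 to 44446556. The places differ between parts of the stretch, and the places behind a given cDNA cannot be read from the tables. The copies share their cDNAs, so their values are not independent of one another.

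The stages shared most nucleotides of this stretch: 163 of the 167 listed at preZGA were also listed at ZGA. The stretches that were strong at preZGA had share ratios below 1. From 0 to 49 nt each copy held 236 cDNAs at preZGA and 258 at ZGA, with a share ratio of 0.640 (0.595 to 0.688). From 80 to 199 nt the range over the copies was 517.9 to 518.0 at preZGA and 570 to 588 at ZGA, with a share ratio of 0.657 (0.626 to 0.690). Scaled to multi-mapping and unique cDNAs together, these and the other ratios below 1 given for the unit and its blocks, down to 0.529, are 1.94 times as large and exceed 1. Between these stretches, from 50 to 79 nt, no site was listed at preZGA and each copy held 98.5 cDNAs at ZGA. From 320 to 349 nt, again, no site was listed at preZGA, and at ZGA a copy held between 91.1 and 111 cDNAs, of which 44.2 lay on the nucleotide at 329 nt. No IgG site was listed in either of these stretches at either stage. From 450 to 499 nt a copy held between 17.4 and 18.3 cDNAs at preZGA and 40.2 at ZGA, with a share ratio of 1.30 (1.03 to 1.64). The unit's 5′ part thus held stretches listed at ZGA alone, and whether cDNAs fell there at preZGA without passing the submitters' filter cannot be seen in the tables. IgG in the whole stretch to 499 nt was 1.28% of hnRNP A1 at preZGA and 0.512% at ZGA, and its highest nucleotide was also that at 87 nt, with 4.86 and 2.43 cDNAs in each copy.

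**Figure D2:**
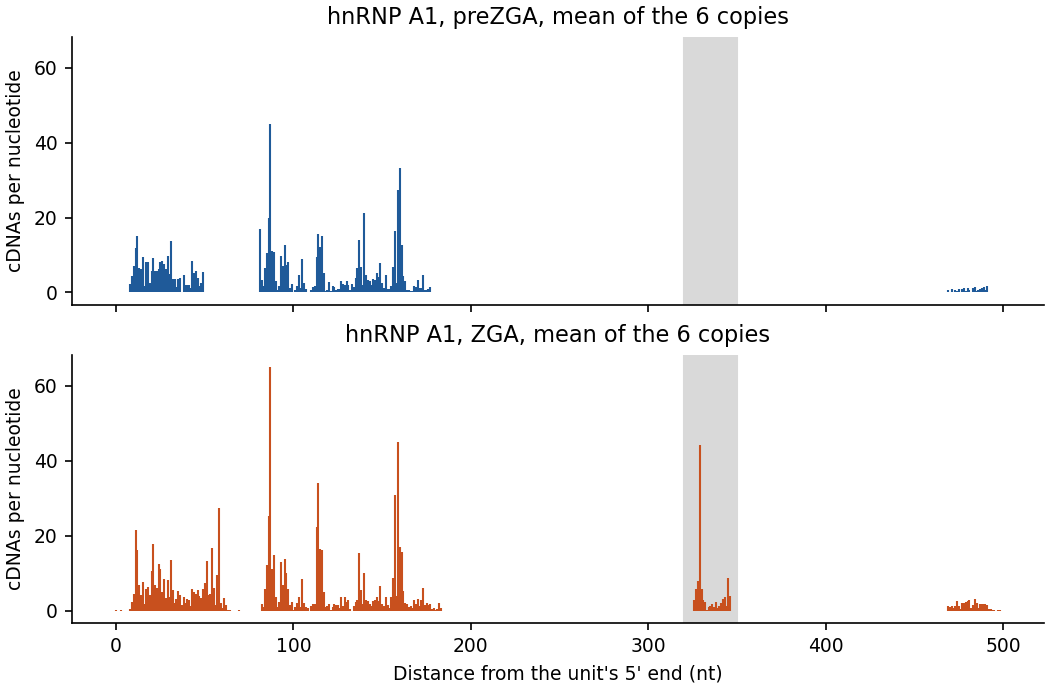
hnRNP A1 cDNAs per nucleotide, as the mean of the 6 copies, against the distance from the unit's 5′ end in nt, at preZGA (top) and ZGA (bottom), with the stretch from 320 to 350 nt shaded. The peak at 87 nt stands at both stages, at 44.9 and 65.0 cDNAs, whereas the shaded stretch and the one from 50 to 79 nt have bars only at ZGA.

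From 500 to 3499 nt the copies kept the same series of values, shifted by 1 nt in some of them. With a shift of up to 2 nt allowed, which was tried after seeing the data, all 34 nucleotides listed from 500 to 1499 nt in the second minus-strand copy at preZGA had their value in every copy, and 65 of 71 from 2500 to 3499 nt did. From 4000 to 5499 nt the first minus-strand copy has no site, so none of 48 could. Equality among the remaining copies was not computed there. From 500 to 1499 nt each copy held 128 cDNAs at preZGA and between 175 and 187 at ZGA, in sum 767 and 1062, with a share ratio of 0.810 (0.738 to 0.891). Among multi-mapping cDNAs this section had more IgG for its hnRNP A1 than the 5′ part, 4.35% at preZGA and 2.22% at ZGA. Unique cDNAs, listed here in the distant copy alone, went the other way at preZGA, with 5 of hnRNP A1 and 57 of IgG. At ZGA they were 84 of hnRNP A1 and 8 of IgG. From 2500 to 3499 nt the sums were 780.0 and 918, with a share ratio of 0.689 (0.626 to 0.759). From 4000 to 5499 nt they were 594 and 983, and the share ratio of 0.969 (0.874 to 1.07) covered 1. Neighbouring blocks in the last section had share ratios on either side of 1. One block of about 25 nt, present in 5 places, held between 81.0 and 81.8 cDNAs in each at preZGA and between 72.8 and 74.3 at ZGA, with a share ratio of 0.529 (0.457 to 0.609) and no IgG site. Another, slightly further along in 3 minus-strand places, held 41.7 in each at preZGA and 135 at ZGA, with a share ratio of 1.89 (1.54 to 2.33). For the first minus-strand copy these blocks were listed not within 5499 nt but near position 43891937.

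**Figure D3:**
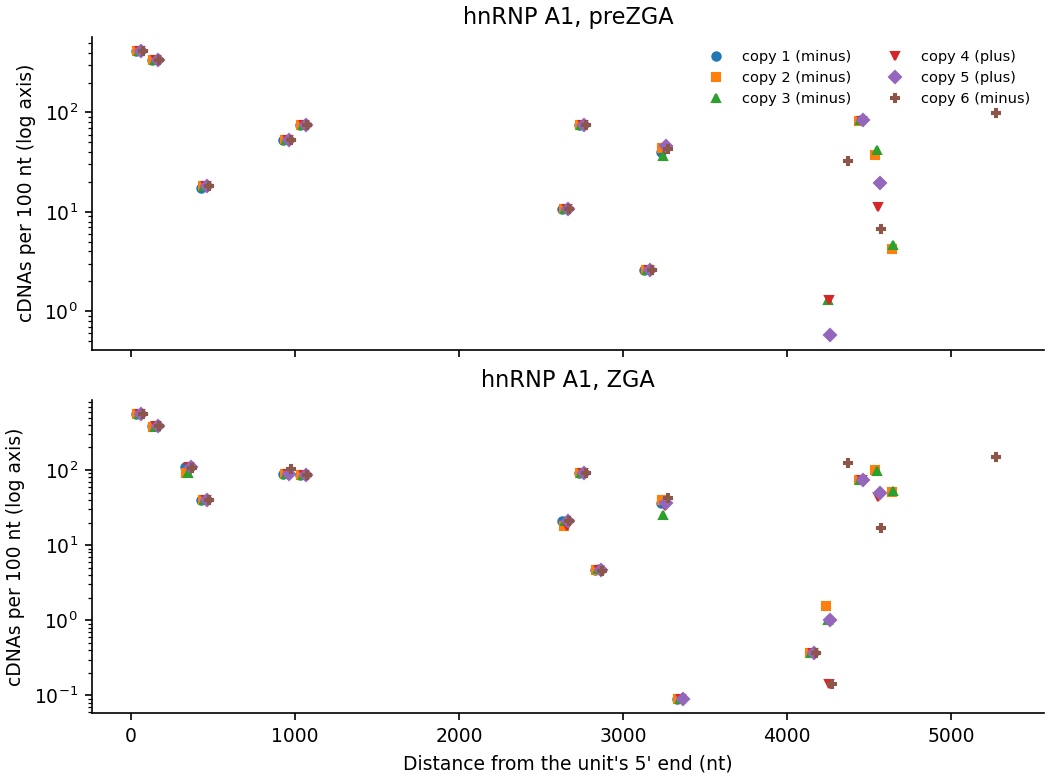
hnRNP A1 cDNAs per 100 nt (log axis) against the distance from the unit's 5′ end in nt for each of the 6 copies, at preZGA (top) and ZGA (bottom), with points shifted slightly sideways and no point where no site was listed. The copies coincide closely up to 499 nt and spread beyond 4000 nt, where the first minus-strand copy has no point.

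Equal values on opposite strands were common on the arm. Runs of 3 consecutive sites, at most 15 nt apart, were read 5′ to 3′ on their own strand and matched when the spacings and the values to 3 decimals were the same. A copy on the other strand of the arm was found for 2072 of the 5042 hnRNP A1 sites at preZGA, or 41.1% (39.7 to 42.5), and these sites held 85.3% of the cDNAs. At ZGA the share was 39.7% (38.7 to 40.7), or 3877 sites, holding 70.6% of the cDNAs. Both intervals count sites as if they were independent, although copies share their cDNAs, so they are too narrow. In the IgG tables the opposite-strand share was 45.3% at preZGA and 35.1% at ZGA. Read in the same genome direction on both strands, which inverted copies would in general not match, the share was 2.86% at preZGA and 7.51% at ZGA. On the other 24 chromosomes the opposite-strand share ran from 0.247% to 18.5% at preZGA with a median of 2.49%, and from 0% to 11.6% at ZGA with a median of 1.99%. The arm's value was above each of these at both stages, although the number of copies in a repeat and the number of sites per chromosome both enter this share. The leading unit, with copies on both strands, alone held 1846 of the arm's sites and 85.9% of its cDNAs at preZGA. At ZGA it held 2302 sites and 65.8% of the cDNAs. The opposite-strand share without the unit was not computed, so the arm's value is not shown to hold apart from it. For unique-mapping sites of the same arm, whose values are whole cDNAs and often low, the search matched 43.5% at preZGA and 58.5% at ZGA, but 43.6% and 58.9% when read in the same genome direction. There the reading direction made almost no difference, in contrast to the multi-mapping sites. The opposite-strand pairs with the most matching sites all lay in the leading unit. The plus-strand block at positions 43985316 to 43985499 and the minus-strand block at 43908798 to 43908981 matched in 160 of 160 sites, with 945 cDNAs at ZGA in each. The same plus-strand block matched the distant minus-strand copy in 158 sites and the one at 43924362 to 43924541 in 151. Off the arm, 77.1% of the sites in runs at preZGA and 59.4% at ZGA had a copy on another chromosome or on the rest of chromosome 4, led by chromosome 5 at both stages.

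Sites at most 15 nt apart were joined into blocks of at least 3 sites, and blocks that shared a run were joined into families. At ZGA 525 blocks were found, of which 428 fell into 74 families holding 92.5% of the arm's cDNAs. Of these families 41 had blocks on both strands, 19 on plus alone and 14 on minus alone, and 23 consisted of 2 blocks. At preZGA there were 248 blocks and 44 families. Among the 10 families with the most cDNAs, 8 were pieces of the leading unit, 2 of them also listed near 43.89 Mb. The other two lay elsewhere, apart from 1 block. The larger is a chain of 61 blocks between 32.4 and 54.8 Mb, 1 of them in the distant copy of the unit. Short shared runs hold it together. With runs of 5 sites, the families that held its plus-strand blocks between 41890001 and 41910000 numbered 4, with at most 7 blocks each. The largest family of the whole arm under that setting, in the chain or not, had 24 blocks. The chain of 61 blocks went from 284 to 2383 cDNAs, with a share ratio of 4.91 (4.34 to 5.58), while its IgG went from 36.0 to 417 cDNAs. These hnRNP A1 sums include the block in the distant copy of the unit, which alone went from 99.5 to 147. The share ratio of the chain without that block was not computed. The smaller consisted of 3 minus-strand blocks of 27 nt beginning at 44611199, 44619519 and 44641041. In each of them hnRNP A1 went from 30.3 to 95.3 cDNAs and IgG from 8.33 to 22.0. Its share ratio was 1.84 (1.45 to 2.36), and IgG was 27.5% of hnRNP A1 at preZGA and 23.1% at ZGA.

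Of the 27 families whose hnRNP A1 sum over the stages reached 20 cDNAs, 15 had a share ratio of at least 2, none was at or below 0.5 and 12 lay between. The definition favours this direction, because the blocks were those listed at ZGA. With blocks listed at preZGA, 5 of 20 families were at or above 2, 2 were at or below 0.5 and 13 lay between. Families were not formed on the other chromosomes, so no share over all families stands beside these counts or those below. Whether the counts are particular to the arm was not tested. Families that had no hnRNP A1 site at preZGA numbered 6 of the 27. One of them had 8 blocks of 17 nt, 5 on minus and 3 on plus, spread from position 32414311 to 48144957. Every block held 12.1 hnRNP A1 cDNAs at ZGA. IgG was listed in each of these blocks at both stages, with 0.556 cDNAs at preZGA and 2.33 at ZGA, so the absence of hnRNP A1 at preZGA was not an absence from all tables. Another family had 26 blocks, all on the plus strand, and went from 11.1 to 136 cDNAs, with a share ratio of 7.17 (3.92 to 14.8). Its IgG was 1.43 cDNAs on 40 sites at preZGA, or 12.9% of hnRNP A1, and no IgG site was listed at ZGA. A plus-strand family of 7 blocks went from 1.11 to 68.1 cDNAs of hnRNP A1, while IgG gave 0.681 cDNAs at preZGA and 0.391 at ZGA. Of the 15 families with a share ratio of at least 2, 9 had an IgG site at ZGA.

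At ZGA the largest sum outside the leading unit lay on the plus strand between 41890001 and 41910000, in an array of short blocks. hnRNP A1 went from 150 cDNAs on 142 sites to 1405 on 702 sites, and no minus-strand site was listed in any of the 4 tables. The share ratio was 5.49 (4.63 to 6.53). IgG went from 26.5 cDNAs on 31 sites to 266 on 355 sites, with a share ratio of 4.96 (3.28 to 7.54). hnRNP A1 was thus 5.64 times IgG at preZGA (3.67 to 8.71) and 5.29 times at ZGA (4.63 to 6.04). The whole arm, most of it the leading unit, had 36.1 and 18.7. Without that unit the arm, with the array included, had 10.6 (8.61 to 13.0) and 7.14 (6.59 to 7.74). The array held 12.1% of the arm's IgG cDNAs at preZGA and 34.5% at ZGA. Unique cDNAs in the same span went from 41 to 496 for hnRNP A1 and from 6 to 64 for IgG.

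The blocks of the array recurred with equal values. Blocks of 48 nt beginning at 41900394, 41903114 and 41907127 each went from 14.9 to 160 cDNAs of hnRNP A1 and from 2.57 to 34.4 of IgG. Blocks of 50 nt beginning at 41895125, 41899563, 41903876, 41905588, 41906827 and 41908666 had no site at preZGA, and each held 18.2 hnRNP A1 and 4.83 IgG cDNAs at ZGA. Their values were whole after multiplication by 6, which is the number of these blocks. A block of 3 sites with 8.33 hnRNP A1 cDNAs and no IgG also occurred 6 times, each time at ZGA alone. Blocks of 56 nt beginning at 41893880 and 41898173 held 41.5 hnRNP A1 cDNAs each at ZGA and none at preZGA, and here the values were whole after multiplication by 2. For the blocks of 48 nt beginning at 41900394, 41903114 and 41907127, none of the multipliers tried made the values whole. Another block of 48 nt, beginning at 41907304, had other values and needed 6. The block beginning at 41894008 also needed 6, so the multiplier need not be the number of blocks. The highest nucleotides at preZGA, at 41894010 and 41898303 with 12 cDNAs each, were also the highest at ZGA, with 37.0 each. A minus-strand block at 40843539 to 40843605 belonged to the same family and went from 14.5 to 160 cDNAs of hnRNP A1 and from 3.33 to 37.3 of IgG. Every block of at least 40 cDNAs at ZGA in this array had IgG sites at that stage.

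**Figure D4:**
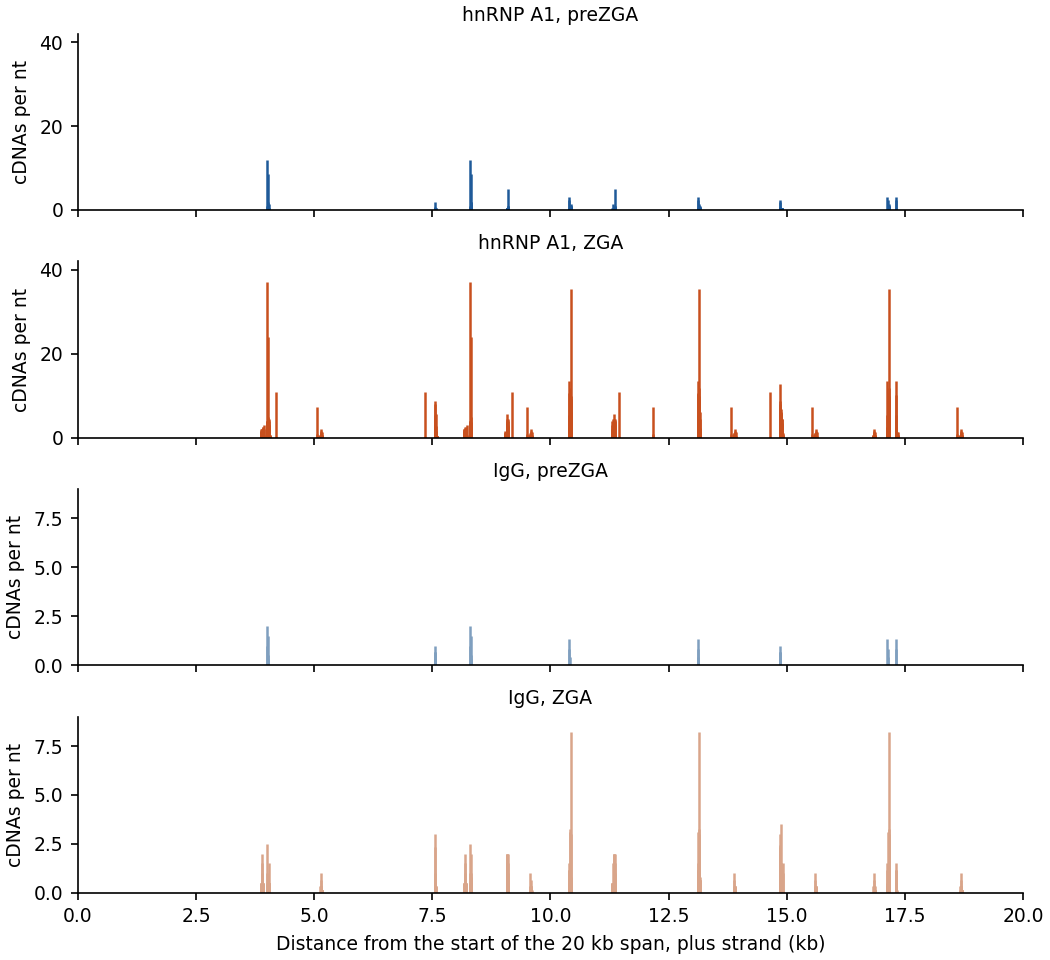
cDNAs per nucleotide along the plus-strand array, against the distance from the start of the 20 kb span in kb, in the 4 pooled tables (hnRNP A1 and IgG at preZGA and ZGA; the IgG axes are shorter). The recurring blocks of equal height are seen at ZGA in both antibodies, with hnRNP A1 bars of up to 37.0 cDNAs, and the tallest IgG bars stand on the 3 copies of the 48 nt block.

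Windows of 10 kb on a single strand gave the distribution of the stage change. The arm had 1370 windows with a site, of which 57 reached 20 cDNAs of hnRNP A1 when the stages were added, and the other 1313 were too sparse to compare. The compared windows held 95.3% (preZGA) and 93.4% (ZGA) of the arm's hnRNP A1 cDNAs. Among them 38, or 66.7% (52.9 to 78.6), had a share ratio of at least 2, against 23.4% of the 462 windows compared over all chromosomes. A share ratio of at most 0.5 was found in 3 windows, or 5.26%, against 17.1% of all compared windows. The median log2 share ratio was 1.44 on the arm and -0.16 over all compared windows, without the windows that had no hnRNP A1 site at preZGA. On the arm 9 of the 57 windows were left out of the median in this way. They count among the 38 higher windows, so leaving them out lowers the arm's median. Windows are not independent, since copies in different windows share their cDNAs, so the interval given for the 38 windows is too narrow. The minimum of 20 cDNAs adds the stages, so a sparse window can reach it only through the stage at which it is high. The windows of all chromosomes passed the same minimum. At a minimum of 100 cDNAs, 6 of 20 windows of the arm, or 30%, had a share ratio of at least 2, against 66.7% at 20. The share over all chromosomes was not computed at 100 cDNAs. The contrast of 66.7% with 23.4% is therefore given for the minimum of 20 alone, which lets in sparse windows. The counts describe the windows so chosen and do not test a stage change. The 38 higher windows went from 302 to 3169 hnRNP A1 cDNAs and from 57.7 to 516 IgG cDNAs. The 16 windows within 2-fold, which include the leading unit, held 90.4% (preZGA) and 71.3% (ZGA) of the arm's hnRNP A1 cDNAs. An IgG site was listed in 44 of the 57 windows at preZGA, or 77.2%, against 63.4% of all compared windows, and in 44 at ZGA, against 61.5%.

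**Figure D5:**
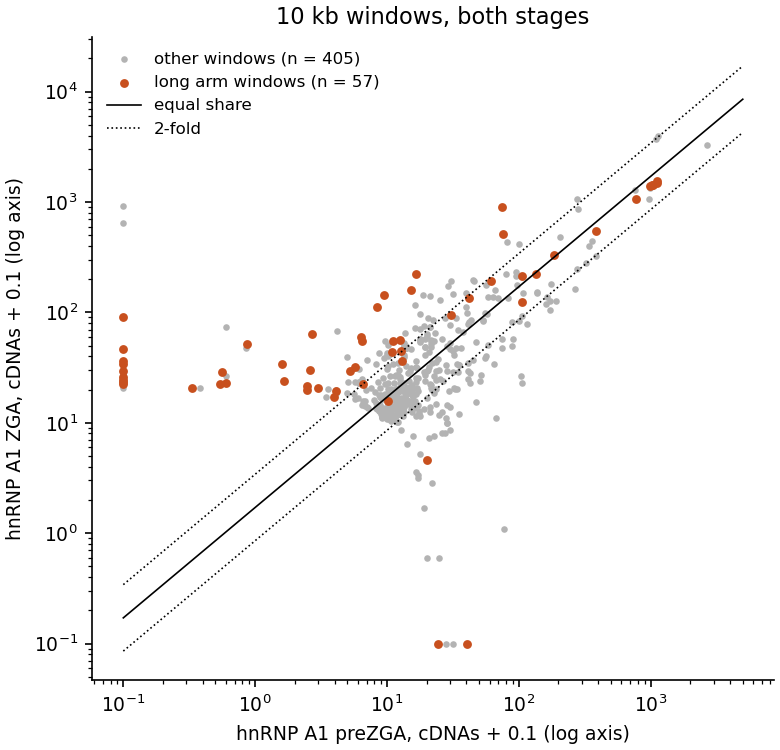
hnRNP A1 cDNAs per 10 kb window at ZGA against preZGA, both on log axes with 0.1 added, for the 57 windows of the arm (orange) and 405 others (grey); the solid line marks an equal share and the dotted lines 2-fold. Most orange points lie above the upper dotted line, and 3 orange points lie below the lower dotted line. The orange points at the far upper right, near the solid line, are windows of the leading unit, and grey points also lie there.

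Of the 57 windows, 9 had no hnRNP A1 site at preZGA, which leaves their share ratios without an upper bound, and the 5 of them with the most cDNAs at ZGA are given here. The plus-strand window from 32800001 held 90.0 hnRNP A1 cDNAs at ZGA, with 24.0 of IgG. The interval of its share ratio began at 14.0. That bound takes the cDNAs at preZGA as 0, although cDNAs that did not pass the filter are not listed. It also leaves out that the window was picked for its high ratio, so it is no firm minimum. The plus-strand window from 44120001 held 46.3 and the minus-strand window from 43210001 held 29.2, and neither had an IgG site at either stage. The minus-strand window from 43260001 held 35.8 with 7.0 of IgG, and the plus-strand window from 33100001 held 33.7 with 0.5 of IgG. Windows rich in IgG outside the array included the plus-strand window from 49330001, where hnRNP A1 went from 16.6 to 223 cDNAs and IgG from 4.40 to 48.1. The minus-strand window from 44610001 went from 61.3 to 191, with IgG at 27.2% of hnRNP A1 at preZGA and 23.4% at ZGA.

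The 3 windows with a share ratio of at most 0.5 were neighbours on the minus strand, from 61120001 to 61150000. Their hnRNP A1 sums were 20.1, 40.6 and 24.1 cDNAs at preZGA and 4.50, 0 and 0 at ZGA. Their unique cDNAs were 39, 23 and 51 at preZGA and 26, 18 and 13 at ZGA, in the same order. As shares of the unique table these gave ratios of 0.809 (0.473 to 1.36), 0.9498 (0.483 to 1.84) and 0.309 (0.154 to 0.577), so that only the last interval lay below 1. IgG gave at most 0.7 cDNAs in any of them at either stage. The minus-strand span left out by the rule, which lies farther along, went from 1128 to 3931 cDNAs of hnRNP A1, and no site was listed in the 10 kb on either side of it. At the other border, the hnRNP A1 sites nearest to the limit at preZGA were at 29998022 outside, with 0.0833 cDNAs, and at 30083996 inside, with 0.111.

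The same nucleotides recurred between stages more often by cDNAs than by sites. Of the hnRNP A1 sites on the arm, 2341 were listed at both stages, which is 46.4% of those at preZGA and 24.0% of those at ZGA, and they held 91.3% and 68.6% of the cDNAs. Outside chromosome 4 the shared sites were 25.6% at preZGA and 21.2% at ZGA. Over all multi-mapping sites they were 27.4% and 21.3%, with 72.1% and 66.8% of the cDNAs, so the arm's shares at ZGA were near the general level. IgG had an entry on 270 of the arm's hnRNP A1 nucleotides at preZGA, or 5.36%, with 22.0% of the cDNAs, and on 999 at ZGA, or 10.2%, with 29.5% of the cDNAs. Over all multi-mapping sites of hnRNP A1 these were 2.61% with 20.1% of the cDNAs at preZGA, and 3.54% with 31.8% at ZGA. By cDNAs the arm was thus near the general level at both stages.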

How the data were processed

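The authors deposited, per the labels, for each group the significant iCLIP sites of its summed replicates, and copies of the same table attached to several libraries were counted once (26 files, 8 distinct tables). The deposited value, a unit of its own kind, is a signed fractional cDNA count whose sign was read as the strand. Per the table names in the labels, sites passed a false discovery rate of 0.01 with 100 permutations and a neighbourhood of 15 nt, on Zv9 with Ensembl release 72. The submitters' processing notes name CASAVA 1.4, and which aligner was used is not given in the sources. The labels speak of 3 summed replicates, while the hnRNP A1 table at ZGA names 4 libraries, and this was not settled.

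Here absolute values were summed by strand, 10 kb window, block and family, and divided by the table's multi-mapping sum. Ratios have exact conditional binomial intervals and shares exact Clopper-Pearson intervals, at 95%, on sums rounded to whole cDNAs. Shares of sites or windows have them on numbers of sites or windows, treated as independent, which copies are not. A single cDNA adds at most 1 to a sum. The tables hold no depth.

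The windows named were, per stage, the 10 with the most hnRNP A1 cDNAs and the 5 with the most IgG, and the 5 highest and 5 lowest share ratios, with ties among the highest ordered by cDNAs at ZGA. The 10 leading families and 5 leading opposite-strand pairs were named, and other families and blocks were chosen after their values were seen. The members and lists were chosen with earlier results of these data known. The window and copy searches were tested on simulated data. Tools were scipy 1.17.1, pandas 2.3.3 and numpy 2.4.6 under Python 3.11.15, with matplotlib 3.10.9 for figures.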

Additional observations from a re-analysis of the deposited data

How the results depend on the processing

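No paired analysis was possible because each group was 1 pooled table, and for the same reason no replicate could be left out. Of 64 recomputed values, 27 stayed within the interval of the main value (counts, within 1.5-fold). The share ratio of the arm, 1.07, was 0.956 over sites of at least 1 cDNA, which reverses it, 1.503 by number of sites, 1.19 with the left-out span kept, 4.06 with unique mapping added, 2.07 scaled to multi-mapping and unique cDNAs, 1.17 scaled to cDNAs outside chromosome 4, 1.82 unscaled and 2.57 without the leading unit. For the unit alone, scaling to multi-mapping and unique cDNAs reversed 0.817 to 1.59. hnRNP A1 over IgG at preZGA, 36.1, was 59.7 over sites of at least 1 cDNA, 9.64 by number of sites, 15.3 with unique mapping and 10.6 without the unit. At ZGA, 18.7 became 32.1, 5.98, 8.22 and 7.14 in the same order, and 16.0 with the span kept. The 38 higher windows of 57 became 60 of 81 at a minimum of 10 cDNAs and 6 of 20 at 100. The share over all chromosomes was not computed at these minimums. The 3 lower windows became 0 with 1 kb windows, 1 with 100 kb windows and 0 at a minimum of 100. The opposite-strand share at preZGA was 48.9% with runs of 2 sites, 37.6% with 5 and 38.0% with gaps of at most 3 nt; at ZGA these were 52.7%, 35.3% and 34.4%, and 41.0% with gaps of at most 50 nt. Blocks defined at preZGA gave 44 families in place of 74. The scalings to multi-mapping and unique cDNAs for the unit, the array and the windows, the removal of the unit, the preZGA blocks and a shift between copies, which moved their equal nucleotides up to 3499 nt at preZGA from 54.9% to 96.3%, were chosen after seeing the data. Higher windows outnumbered lower ones under every window setting run. Each of these settings kept a minimum on the stages added together, so none of them tested that choice of windows.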
